A study of Mus musculus with 12 samples.

Results

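The histone genes of the mouse embryonic cortex were followed from E12.5 through E15.5 to E18.5 (embryonic days) on 12 expression arrays (Illumina WG-6 v2.0), 4 for each of the 3 stages. Members were chosen by gene symbol in the platform's probe annotation, taking every H1f, H2ac, H2bc, H3c or H4c symbol with a number and every symbol that starts with H2az, H2ax, H3f3 or macroh2a. This gave 102 probes of 67 genes, out of 45281 probes on the array, of which 34885 have 1 symbol. Each group was total RNA of embryonic cortex at one stage, and the labels name no genotype, strain or treatment. The design text gives 4 embryos for each stage, and the labels do not say whether each array is 1 embryo, so the p-values given here cover array-to-array spread only, and part of it may be technical.

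Histones are the proteins that DNA winds around in chromatin. The replication-dependent genes (the core types H2A, H2B, H3 and H4 and the linker type H1) lie in clusters of near-identical copies and are transcribed mainly in S phase, when new DNA must be packaged. Their mRNAs typically end in a stem-loop rather than a poly(A) tail, although some of these genes also make polyadenylated transcripts, and the labeling kit named in the labels makes cDNA from poly(A) tails, so what share of these transcripts the arrays read was not tested. Variant histones are encoded outside these clusters, by genes whose mRNAs mostly carry a poly(A) tail and are made through the cell cycle and in cells that have left it. In the cortex, NPCs divide next to the ventricle and their postmitotic daughters become neurons, so the share of cells in S phase belongs to the background of every histone measurement. The arrays read bulk tissue, where fewer cells of a type and less RNA per cell cannot be told apart.

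By symbol, 53 genes (82 probes) were replication-dependent, 9 genes (15 probes) were variants and 5 genes (5 probes: H1f6, H1f7, H1f8, H2ac1 and H2bc1) are known from the germ line. A probe was tested where its detection p-value was under 0.01 on at least 1 array, which held for 68 replication-dependent probes of 47 genes and 12 variant probes of 8 genes. The 5 germ-line probes were undetected on every array. No probe was tested for the replication-dependent genes H1f1, H1f3, H1f4, H2ac6, H2bc8 and H4c14 or for Macroh2a3. Of the tested replication-dependent probes, 47 were detected on all 12 arrays and 14 were undetected on every E18.5 array. Levels are normalized log2 signals, fold changes are differences of stage means on that scale, and a probe was called at a limma adjusted p under 0.01 with a change of at least 2-fold.

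Across the series, the median signal before normalization was 86.1 to 99.3 per array, and 15227 to 17472 probes were detected. The cortical labels were checked against marker lists. Each neuronal marker was detected on at least 1 array of every stage. From E12.5 to E18.5, 5 of 5 tested progenitor markers and 6 of 6 tested markers of proliferating cells fell and 5 of 6 neuronal markers rose. Array 4 of E12.5 stood apart, with a mean log2 level of 9.62 over the neuronal markers, where the rest of its stage had 8.59 to 8.77, and 9.07 over the choroid plexus markers, where the rest had 10.17 to 10.43. Array 4 of E15.5 had a choroid plexus level of 8.94, and its 3 companions had 5.90 to 6.13. Of the 5 tested erythroid markers, the embryonic globins Hba-x, Hbb-y and Hbb-bh1 were undetected at E18.5 and fell by at least 59.1-fold, 282-fold and 21.5-fold over both intervals, while Alas2 rose in the first interval (1.03) and Hba-a1 changed by 0.88 in it and by 0.54 over both, short of 2-fold. The part of these cells in the histone results was not tested. Counts without array 4 of E12.5, and without both arrays numbered 4 of the earlier stages, are given below.

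The replication-dependent histones fell mainly in the later interval. Between E15.5 and E18.5, 48 of 68 replication-dependent probes fell (70.6%, against 4.83% of all 19652 tested probes) and 0 rose (6.96% of all tested probes rose). Between E12.5 and E15.5, only 4 fell (5.88%, against 5.30% of all tested probes) and 2 rose (2.94%, against 6.73%). Without array 4 of E12.5, 8 fell in this interval. Over the whole period, 52 of 68 fell (76.5%, against 13.0%) and 0 rose (15.2% of all rose). The median log2 fold change of these probes was -0.45 in the first interval, -1.43 in the second and -1.77 over both, while the medians of all tested probes were -0.03, -0.05 and -0.07. Read as 1 probe per gene, the probe with the highest mean, 3, 33 and 35 of 47 genes fell and 1, 0 and 0 rose. Of all 10662 tested genes, 5.18%, 5.47% and 13.8% fell and 7.73%, 6.95% and 16.3% rose. The 3 of 47 in the first interval is 6.38%, near the share of all genes.

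At the adjusted p alone, without the fold, 35 of 68 probes fell and 7 rose from E12.5 to E15.5 (21.7% of all tested probes in each direction). From E15.5 to E18.5, 61 fell and 0 rose (21.3% and 20.0% of all). Over both, 61 fell and 1 rose (33.3% and 30.0% of all). The 4 arrays of the later stage lay wholly below those of the earlier stage for 38 probes in the first interval (24.3% of all tested probes), 64 in the second (28.2%) and 62 over both (34.6%). The difference between the intervals was itself tested, and 49 of 68 probes had a more negative change in the later interval at an adjusted p under 0.01, against 8.99% of all tested probes. The fitted change was lower in the later interval for 64 of 68 probes. The median difference between the intervals was -1.07 for the 68 probes and -0.03 for all tested probes. Only 3 probes, those of H2ac8, H2ac11 and H2ac21, were called lower in both intervals. The H2ac8 probe was undetected on every E18.5 array, so its later fall has only a bound, of 1.36-fold.

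**Figure D1:**
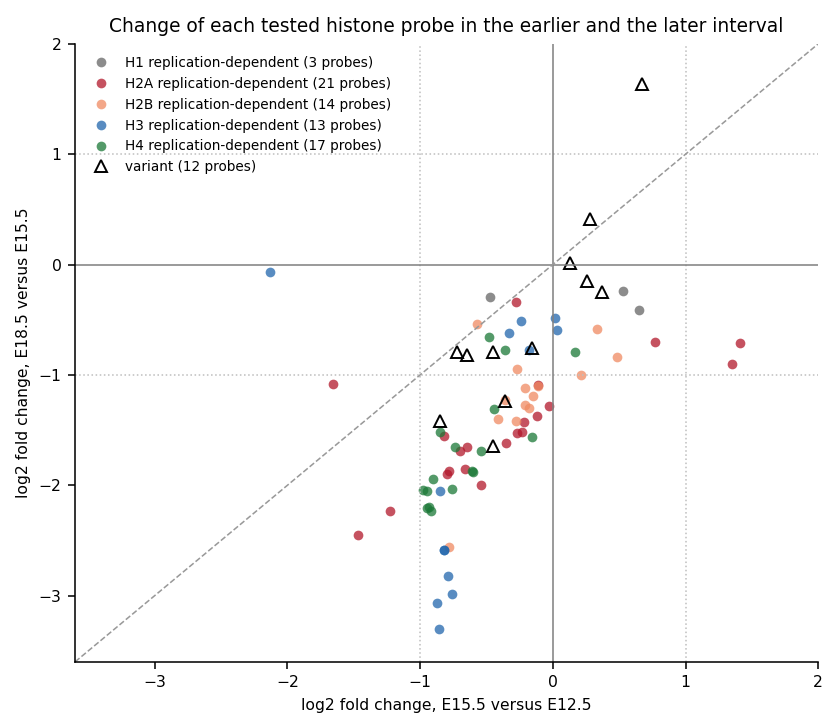
Each point is 1 tested histone probe, with its log2 fold change between E12.5 and E15.5 on the horizontal axis and between E15.5 and E18.5 on the vertical axis. Dotted lines mark 2-fold and the dashed line marks equal change; of the 68 replication-dependent probes (circles), 64 lie below the dashed line, and the variants (triangles, 12 probes) range from -1.64 to 1.64 on the vertical axis.

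Some of these folds are limited by detection. A probe undetected on all arrays of a stage has only a bound there, computed as the later or earlier group's mean against the lowest signal of a detected probe on each array. Of the 52 falls between E12.5 and E18.5, 11 rest on such a probe, with bounds from 1.17-fold to 10.5-fold, and 2 of these bounds are under 2-fold. Of the 48 falls between E15.5 and E18.5, 9 rest on one and 5 bounds are under 2-fold. Of the 47 probes detected on all 12 arrays, 2, 35 and 37 fell in the first interval, the second and over both. H3c3 and H2ac8, genes for H3 and H2A, fell from E12.5 to E18.5 by at least 5.27-fold and 4.30-fold. A probe of H3c10 fell at least 10.5-fold, while the brightest H3c10 probe, which stands for the gene, changed by -0.95 on the log2 scale and was not called.

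Among the H3 genes, H3c7 carried the largest fall by the naming rule, which takes only genes detected on every E12.5 and E18.5 array. H3c7 measured 10.38, 10.31, 10.49 and 10.21 on the 4 arrays of E12.5, 9.85, 9.24, 9.37 and 9.43 at E15.5 and 6.17, 6.50, 6.51 and 6.45 at E18.5. By this probe no array of one stage reached the range of another, and the drop after E15.5 was the larger. The log2 fold change was -0.87 ± 0.13 (SE, n = 4 arrays per stage, adjusted p = 7.23e-05) in the first interval and -3.07 ± 0.13 (adjusted p = 1.63e-09) in the second, a 15.4-fold fall over both. The intervals differed by -2.20 (adjusted p = 1.72e-05). A dimmer probe of H3c7 cannot compare the 2 intervals. It was detected on all E12.5 arrays (mean 6.74) and on none of the later stages, so it gives no fold for the second interval. It is 1 of the 4 probes that fell in the first interval (adjusted p = 3.40e-05), where its bound was 1.95-fold. Its fitted interval difference of 2.07 (limma adjusted p = 0.00670) rests on undetected values at both later stages.

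H3c6 measured 10.81, 10.73, 10.75 and 10.44 at E12.5, 10.20, 9.64, 9.88 and 9.86 at E15.5 and 6.83, 7.28, 7.03 and 7.16 at E18.5. H3c4 measured 10.61, 10.75, 10.76 and 10.49, then 10.20, 9.70, 9.69 and 9.74, then 7.11, 7.26, 7.52 and 7.08. In both genes the stages did not overlap, and E15.5 lay nearer to E12.5 than to E18.5. H3c6 fell 12.2-fold over both intervals (log2 fold change -3.61 ± 0.13, adjusted p = 7.80e-11). H3c4 fell 10.6-fold (-3.41 ± 0.13, adjusted p = 1.09e-10). H3c1 lies outside the naming rule because it was detected on 2 of 4 E18.5 arrays, and it was singled out after its values were seen, as the probe with the most negative fold change of the 68. Its range over the 4 arrays went from 9.48 to 10.02 through 8.53 to 9.16 down to 5.43 to 5.74 over the 3 stages, a log2 fold change of -4.16 ± 0.14 (adjusted p = 5.51e-11).

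The H4 genes all encode the same protein, which pairs with H3 in the nucleosome core, and 16 of 17 H4 probes (10 of 11 genes) fell between E12.5 and E18.5, with a median log2 fold change of -2.48. H4c17 measured 9.95, 9.91, 9.76 and 9.51 at E12.5, 9.01, 8.83, 8.55 and 8.94 at E15.5 and 6.51, 6.61, 6.69 and 6.70 at E18.5. H4c9 measured 10.43, 10.46, 10.41 and 9.98, then 9.66, 9.23, 9.25 and 9.46, then 6.87, 7.03, 7.32 and 7.44. H4c6 measured 10.43, 10.46, 10.81 and 10.44, then 9.59, 9.59, 9.35 and 9.66, then 7.42, 7.55, 7.63 and 7.46. The stages did not overlap in any of the 3 genes, and the later step was the larger in each. Over both intervals the log2 fold change was -3.16 ± 0.12 for H4c17, -3.15 ± 0.15 for H4c9 and -3.02 ± 0.11 for H4c6 (adjusted p = 9.39e-11, 5.26e-10 and 6.23e-11). In the first interval they were -0.95, -0.92 and -0.98, each past the adjusted p and short of 2-fold. The gene that was not called, H4c8, had ranges of 7.51 to 7.70, 7.62 to 7.97 and 6.87 to 7.12 over the 3 stages by its brighter probe.

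Among the H2A genes, H2ac21 and H2ac11 had the largest falls by the same rule. H2ac21 measured 11.89, 11.89, 11.72 and 11.84 at E12.5, 10.65, 10.39, 10.28 and 10.15 at E15.5 and 7.48, 7.89, 8.28 and 8.03 at E18.5. H2ac11 measured 12.14, 12.18, 11.98 and 11.96, then 11.10, 10.72, 10.85 and 10.68, then a mean of 8.60 ± 0.47 (SD), with 7.97 the lowest. Both genes fell past 2-fold in each interval without overlap between stages. The fall of H2ac21 was 15.1-fold over both intervals (log2 fold change -3.91 ± 0.15, adjusted p = 1.07e-10). The fall of H2ac11 was of like size (-3.46 ± 0.19, adjusted p = 1.63e-09).

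**Figure D2:**
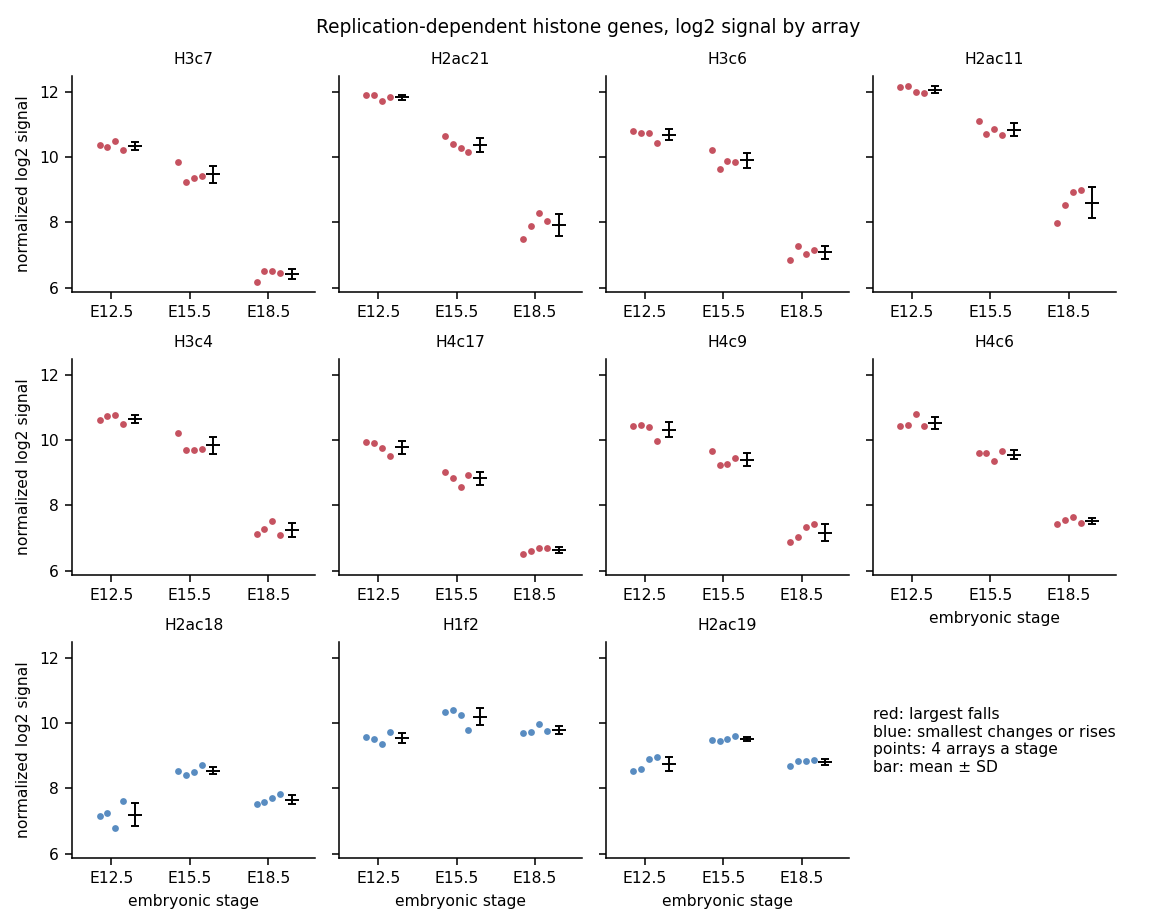
Normalized log2 signal of 11 replication-dependent histone genes on each of the 4 arrays of a stage (points), with the mean ± SD of the stage (bar). The 8 genes in red, such as H3c7 with 10.21 to 10.49 at E12.5 and 6.17 to 6.51 at E18.5, stepped down at each stage, and the 3 in blue were highest at E15.5 by their mean.

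By type, the falls between E12.5 and E18.5 covered 17 of 21 H2A probes (median log2 fold change -1.97), 11 of 14 H2B probes (-1.34), 8 of 13 H3 probes (-2.91), 16 of 17 H4 probes (-2.48) and 0 of 3 H1 probes (0.24), where 13.0% of all tested probes fell. In the first interval 3 H2A probes and 1 H3 probe fell, and 0 of the other types. Of the 47 genes, 12 were not called between E12.5 and E18.5: H1f2, H1f5, H2ac18, H2ac19, H2bc3, H2bc4, H2bc14, H3c8, H3c10, H3c13, H3c14 and H4c8. No test of the difference between types was made. Of the 39 tested genes on chromosome 13, where the larger histone cluster lies, 31 fell (median log2 fold change -1.80), and of the 8 on chromosome 3, 4 fell (-0.83), where 13.8% of all tested genes fell.

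Rises were few among the replication-dependent probes. Between E12.5 and E15.5, 2 of 68 were called higher (2.94%, against 6.73% of all), both of H2ac18. At the adjusted p alone 7 of 68 were higher (21.7% of all tested probes were), of which 2 were of H1f2, 2 of H2ac18 and 1 each of H2ac19, H2bc4 and H2bc14. H2ac18 measured 7.14, 7.23, 6.77 and 7.62 at E12.5, 8.54, 8.42, 8.51 and 8.70 at E15.5 and 7.51, 7.57, 7.69 and 7.82 at E18.5. The E15.5 arrays lay above all others, and E12.5 and E18.5 overlapped. It rose 2.55-fold (log2 fold change 1.35 ± 0.15, adjusted p = 8.04e-06), then changed by -0.90 ± 0.15 (adjusted p = 0.000183, short of 2-fold), and the intervals differed by -2.25 (adjusted p = 3.87e-05). Another probe of H2ac18 had 1.41 and -0.71, while the remaining probe, at 5.47 to 6.49 on all arrays, had -0.28 and -0.34. H2ac18 and H2ac19 are neighboring copies of nearly the same sequence, and how their probes share signal was not tested.

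H2ac19 measured 8.53, 8.58, 8.89 and 8.97 at E12.5, 9.49, 9.46, 9.50 and 9.59 at E15.5 and 8.68, 8.84, 8.83 and 8.87 at E18.5, again with E15.5 above all other arrays. Its log2 fold change was 0.77 ± 0.10 (adjusted p = 3.43e-05), then -0.70 ± 0.10 (adjusted p = 6.73e-05), and 0.06 ± 0.10 over both (adjusted p = 0.589). H1f2, a linker histone, measured 9.56, 9.52, 9.36 and 9.74 at E12.5, 10.34, 10.39, 10.25 and 9.80 at E15.5 and 9.69, 9.73, 9.96 and 9.75 at E18.5. Array 4 of E15.5 was the lowest of its stage and fell within the E18.5 range. The log2 fold change of H1f2 was 0.65 ± 0.13 (adjusted p = 0.000788), then -0.41 ± 0.13 (adjusted p = 0.0156), and 0.24 ± 0.13 over both (adjusted p = 0.115). H2bc14 and H2bc4, genes for H2B, had log2 fold changes of 0.48 ± 0.09 and 0.33 ± 0.09 in the first interval (adjusted p = 0.000566 and 0.00678) and -0.84 and -0.58 in the second, all short of 2-fold.

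The promoters of 2 genes with large falls (H3c6 and H4c9), of a gene with a smaller fall that shares its window with H2ac11 (H2bc11, -1.21 on the log2 scale over both intervals), of H2ac18 and of a variant are shown, so that members with like and unlike changes can be compared by the letters before their start. Windows of 300 bases, 250 before and 50 after the RefSeq start (GRCm38.p6), were found for 60 of 67 member genes. The letters searched, on both strands, were CCAAT (the CCAAT box, bound by NF-Y), TATAAA (the TATA box), ATTTGCAT (the octamer, bound by Oct factors) and TTTCGCGC and TTTGGCGC (forms of the E2F site), none of which contains another. Capitals mark the matches, in either orientation. H3c6 (chr13:23562336-23562635, minus strand), H4c9 (chr13:22041313-22041612, minus strand) and H2bc11 (chr13:22042948-22043247, plus strand) are from the chromosome 13 cluster. H2ac18 (chr3:96245247-96245546, plus strand) rose in the first interval, and H3f3b (chr11:116024455-116024754, minus strand) is a variant that stayed within 1.5-fold.
H3c6: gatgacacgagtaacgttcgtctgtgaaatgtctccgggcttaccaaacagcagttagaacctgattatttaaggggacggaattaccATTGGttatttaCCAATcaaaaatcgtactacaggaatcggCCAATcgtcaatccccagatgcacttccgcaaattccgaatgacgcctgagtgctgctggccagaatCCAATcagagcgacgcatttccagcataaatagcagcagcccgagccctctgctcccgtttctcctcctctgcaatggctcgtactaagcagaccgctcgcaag
H4c9: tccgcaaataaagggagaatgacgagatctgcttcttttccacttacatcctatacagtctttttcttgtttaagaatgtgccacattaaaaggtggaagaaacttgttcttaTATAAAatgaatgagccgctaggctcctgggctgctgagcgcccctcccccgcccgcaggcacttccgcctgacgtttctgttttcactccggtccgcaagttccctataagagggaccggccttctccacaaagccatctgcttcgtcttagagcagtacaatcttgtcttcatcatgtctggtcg
H2bc11: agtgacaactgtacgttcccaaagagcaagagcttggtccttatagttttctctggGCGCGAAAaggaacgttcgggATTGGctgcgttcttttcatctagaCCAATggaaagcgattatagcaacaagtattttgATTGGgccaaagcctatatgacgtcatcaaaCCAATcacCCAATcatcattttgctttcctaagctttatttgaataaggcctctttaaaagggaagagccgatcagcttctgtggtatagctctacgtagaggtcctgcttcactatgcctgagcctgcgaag
H2ac18: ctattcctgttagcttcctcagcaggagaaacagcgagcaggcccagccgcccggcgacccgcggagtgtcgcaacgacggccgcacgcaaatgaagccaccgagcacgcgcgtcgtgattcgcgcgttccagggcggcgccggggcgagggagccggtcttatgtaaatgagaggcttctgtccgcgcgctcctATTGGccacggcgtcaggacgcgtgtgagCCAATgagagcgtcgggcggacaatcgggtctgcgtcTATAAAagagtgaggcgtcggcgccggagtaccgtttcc
H3f3b: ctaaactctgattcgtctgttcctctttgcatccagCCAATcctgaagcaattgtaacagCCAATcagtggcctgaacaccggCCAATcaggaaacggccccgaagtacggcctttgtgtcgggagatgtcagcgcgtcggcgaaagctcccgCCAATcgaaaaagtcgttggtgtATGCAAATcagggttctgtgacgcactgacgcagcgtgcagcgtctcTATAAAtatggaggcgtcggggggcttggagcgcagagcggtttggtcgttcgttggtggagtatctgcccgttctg

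The H3c6 window held 4 CCAAT boxes and the H4c9 window none, although both genes fell by more than 3 log2 units. The H2bc11 window, shared with H2ac11 on the opposite strand, held 5 CCAAT boxes and 1 match to TTTCGCGC. H2ac18 had 2 CCAAT boxes and a TATA box, and H3f3b had 4 CCAAT boxes, a TATA box and an octamer. CCAAT was present in 40 of 48 replication-dependent windows (83.3%), 5 of 7 variant windows (71.4%) and 37.4% of all 32851 windows. It was in 15 of 15 H2A, 10 of 10 H2B and 7 of 7 H3 windows and in 3 of 11 H4 windows. TATAAA was in 29 of 48 (60.4%) against 13.6% of all, and in 1 of 7 variant windows. The octamer was in 11 of 48 (22.9%) against 1.74% of all, in 6 of 10 H2B and 5 of 15 H2A windows and in 0 of the H1, H3 and H4 windows. TTTCGCGC was in 8 of 48 (16.7%) against 0.323% of all, and TTTGGCGC in 0 of 48 against 0.514%. Windows of neighboring pairs overlap and copies resemble each other, so these counts are not independent, and a match is a description of letters only.

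Several H2A and H2B genes face away from each other across one shared promoter, and 6 such pairs were found by overlapping windows on opposite strands, 4 of them with both genes tested. H2ac11 and H2bc11 had log2 fold changes of -3.46 and -1.21 over both intervals. H2ac12 and H2bc12 had -2.39 and -1.48, H2ac15 and H2bc15 had -2.51 and -1.60, and H2ac7 and H2bc7 had -1.65 and -1.34. All 8 genes fell, and the H2A gene had the more negative value in 4 of 4 pairs. H2bc11 itself measured 9.91, 9.88, 9.87 and 9.82 at E12.5, 9.73, 9.72, 9.74 and 9.83 at E15.5 and 8.69, 8.50, 8.80 and 8.65 at E18.5, so its arrays overlapped in the first interval and not in the second. The H2A probes of 3 pairs belong to the group of bright probes described next, which was set by signal and not by sequence. A pair's difference may not be that of the pair's own transcripts, which was not tested.

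Near-identical copies limit what a probe's name says. Among the 21 tested H2A probes, 12 probes of 8 genes (H2ac7, H2ac10, H2ac12, H2ac13, H2ac15, H2ac20, H2ac22 and H2ac24) had E12.5 means of 13.99 to 14.67, close to the highest value on any array, 14.86. They were set apart by a gap in the E12.5 means (the next probe was at 12.07), a grouping made after the values were seen. Over both intervals their log2 fold changes ran from -1.31 to -2.70, and those of the other 9 H2A probes from -3.91 to 0.69. H2ac24, the brightest of the 12 at E12.5, measured 14.79, 14.65, 14.65 and 14.60, then 14.64, 14.43, 14.51 and 14.62, then 12.94, 13.19, 13.20 and 13.39. Its E12.5 and E15.5 arrays overlapped, and all E18.5 arrays lay below (log2 fold change from E15.5 -1.37 ± 0.10, adjusted p = 1.06e-07). H2ac22, the dimmest of the 12, had E12.5 arrays at 13.95 to 14.07 and changed by -0.78, -1.87 and -2.66 in the first interval, the second and over both. The highest raw signal of a histone probe was 29193, and the highest of any probe was 26444 to 33529 per array. Whether the brightest probes were compressed near the top of the range, and which copies each probe reads, was not tested.

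The H3 probes were also grouped by signal, at the largest gap in their E18.5 means, after the values were seen. Probes of H3c10, H3c13 and H3c14 had E18.5 means of 11.01 to 11.84. They changed by -0.46 to -0.95 on the log2 scale over both intervals, none past 2-fold. The other 10 H3 probes had a median of -3.41. A cut on E18.5 values favors small falls in this comparison. The 3 bright probes were also the brightest H3 probes at E12.5 (means 11.96 to 12.39, the others at most 10.68). The direction was not that of H2A, where the bright group had a median of -2.13 and the other probes -1.19. The H3c13 probe ranged from 12.16 to 12.64 on the E12.5 arrays, from 12.32 to 12.59 on those of E15.5 and from 11.47 to 11.98 on those of E18.5. The first stages overlapped and E18.5 lay below both. H3c10 is the clearest case of probes that disagree, since its bright probe changed by -0.95 and its other probes by -3.74 and -2.91, both undetected at E18.5. The probes of H2bc21 gave -1.22 and -3.33 from like E12.5 levels of 9.53 to 9.72 and 9.66 to 9.95. Of 21 histone genes with more than 1 tested probe, 3 (H2ac18, H3f3a and Macroh2a1) had probes that passed the adjusted p in opposite directions in a comparison.

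**Figure D3:**
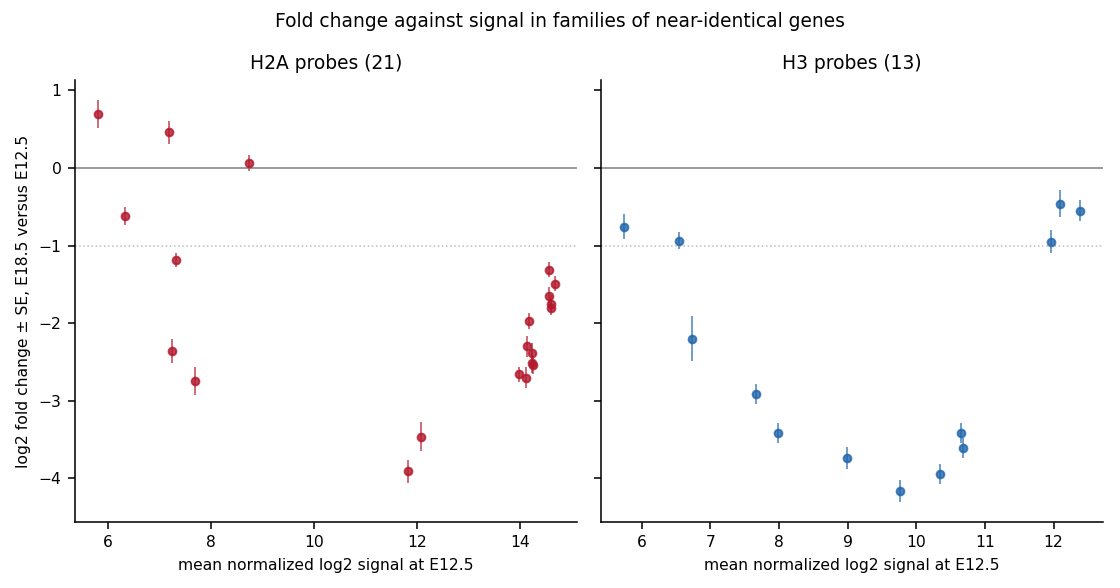
Log2 fold change of E18.5 over E12.5 (± SE) of each tested H2A probe (left, 21 probes) and H3 probe (right, 13 probes) against its mean normalized log2 signal at E12.5. The 12 brightest H2A probes lie between -1.31 and -2.70 and the other 9 between -3.91 and 0.69. The 3 brightest H3 probes lie between -0.46 and -0.95 and the other 10 between -4.16 and -0.76.

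The variant histones moved apart from each other. Of 12 tested variant probes, 0, 3 and 6 fell in the first interval, the second and over both (5.30%, 4.83% and 13.0% of all tested probes). In the same order, 0, 1 and 1 rose (6.73%, 6.96% and 15.2% of all). The median log2 fold changes of the 12 were -0.26, -0.78 and -1.08, against -0.45, -1.43 and -1.77 for the replication-dependent probes. All 8 tested genes were detected on all 12 arrays. Over both intervals 5 of 8 genes fell (H2ax, H2az2, H2az1, H1f10 and Macroh2a1), where 13.8% of all tested genes did. The other 3 (H3f3a, H3f3b and Macroh2a2) had changes under 0.2. No test of the difference between the classes was made, since the members were chosen by name and share arrays.

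H2ax encodes H2A.X, the variant that is phosphorylated at DNA breaks, and its mRNA is known both with a stem-loop and with a poly(A) tail. It measured 12.47, 12.54, 12.67 and 12.32 at E12.5, 11.73, 11.63, 11.60 and 11.66 at E15.5 and 10.27, 10.22, 10.11 and 10.33 at E18.5. The stages did not overlap, and it fell 4.81-fold over both intervals (log2 fold change -2.27 ± 0.09, adjusted p = 1.23e-10). Its steps were -0.85 ± 0.09 and -1.42 ± 0.09, with a difference of -0.57 (adjusted p = 0.0133).

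H2az1 and H2az2 encode H2A.Z, which sits at promoters and is exchanged into nucleosomes outside replication. H2az1 measured 13.83, 13.86, 13.80 and 13.69 at E12.5, 13.41, 13.41, 13.41 and 13.53 at E15.5 and 12.21, 12.14, 12.29 and 12.17 at E18.5. H2az2 measured 12.26, 12.39, 12.22 and 12.12, then 11.85, 11.71, 11.84 and 11.79, then 10.16, 10.05, 10.19 and 10.21. Neither gene overlapped between stages. H2az1 fell 3.02-fold (-1.60 ± 0.07, adjusted p = 4.87e-10) and H2az2 fell 4.27-fold (-2.09 ± 0.08, adjusted p = 1.16e-10). In both, the later step was the larger, with differences of -0.88 for H2az1 and -1.19 for H2az2 (adjusted p = 0.000282 and 5.28e-05).

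H1f10 encodes a linker histone outside the clusters. It measured 11.16, 11.39, 12.16 and 11.29 at E12.5, 10.84, 10.80, 11.04 and 10.71 at E15.5 and lay between 9.96 and 10.10 on all E18.5 arrays. The stages did not overlap, array 3 of E12.5 was the highest in both of its probes, and the fall was 2.77-fold (-1.47 ± 0.17, adjusted p = 3.55e-06). The steps of -0.65 and -0.82 differed by -0.17 (adjusted p = 0.701).

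The probes of Macroh2a1, whose protein carries a large domain beyond its H2A part, went both ways. The probe with the highest mean measured 12.97, 13.01, 13.31 and 12.81 at E12.5, 12.67, 12.52, 12.56 and 12.54 at E15.5 and 11.82, 11.90, 11.67 and 11.73 at E18.5, a fall of 2.37-fold (-1.24 ± 0.10, adjusted p = 1.19e-07). Another probe changed by -0.92 ± 0.14 (adjusted p = 4.10e-05). The probe shown in orange measured 4.73, 4.70, 4.82 and 5.26, then 5.09, 5.86, 5.63 and 5.61, then 7.27, 7.08, 7.27 and 7.14. It was detected on 0, 1 and 4 arrays of the 3 stages and rose at least 2.68-fold over both intervals (adjusted p = 1.55e-08), and it is the 1 variant probe that rose (6.96% of all tested probes rose in the second interval and 15.2% over both). The gene is known to be spliced into more than 1 form, and which form each probe reads was not tested.

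H3f3a and H3f3b encode the same replacement H3, which is laid down outside S phase. H3f3a measured 13.21, 13.27, 13.24 and 13.32 at E12.5, 13.64, 13.54, 13.68 and 13.65 at E15.5 and 13.32, 13.36, 13.37 and 13.45 at E18.5. H3f3b measured 13.45, 13.28, 13.45 and 13.58, then 13.68, 13.76, 13.76 and 13.60, then 13.69, 13.53, 13.50 and 13.49. E15.5 was above E12.5 on every array in both genes, and the E18.5 arrays of H3f3b overlapped both stages. Over both intervals the log2 fold change was 0.12 ± 0.07 for H3f3a (adjusted p = 0.157) and 0.11 ± 0.09 for H3f3b (adjusted p = 0.256). A dimmer probe of H3f3a, at 7.01 to 7.19 on the earliest and 7.59 to 7.96 on the latest arrays, changed by 0.69 ± 0.11 (adjusted p = 7.77e-05), short of 2-fold. Macroh2a2 measured 8.95, 8.97, 8.68 and 8.76, then 8.95, 8.94, 9.06 and 8.93, then 9.09, 8.99, 8.79 and 9.08, and all stages overlapped (0.15 ± 0.10, adjusted p = 0.176).

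**Figure D4:**
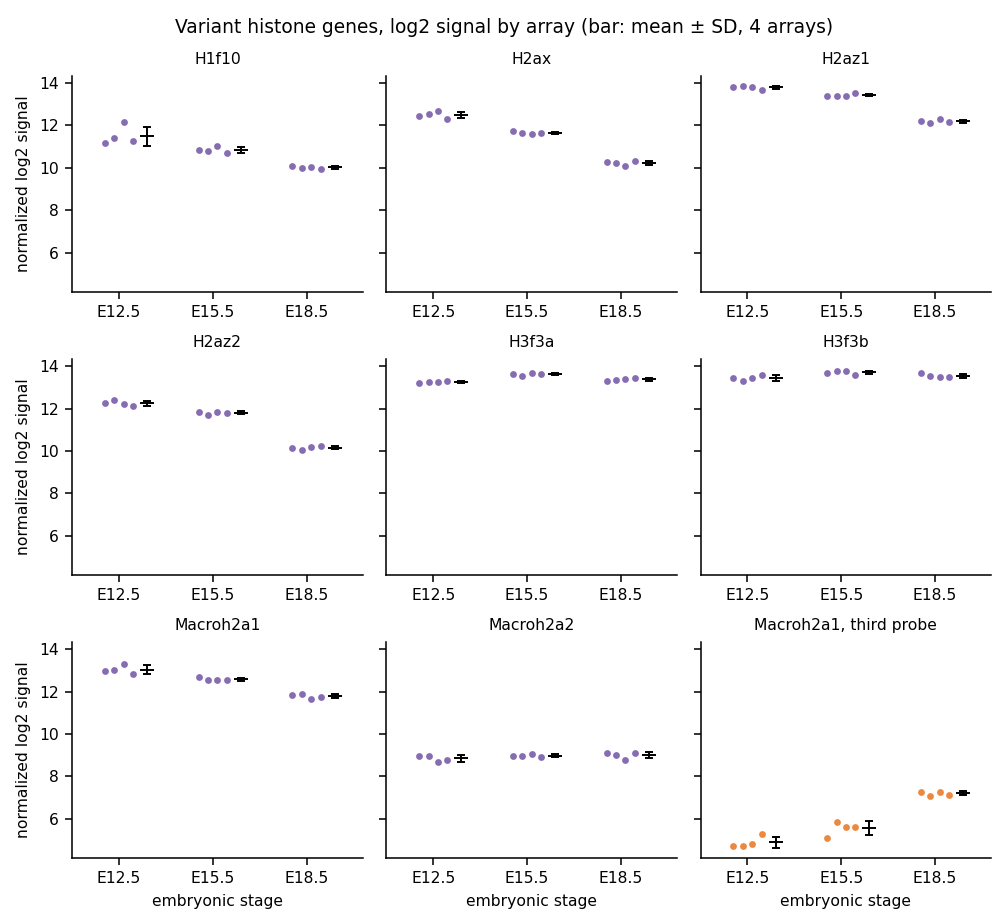
Normalized log2 signal of the 8 tested variant histone genes, and of a dimmer Macroh2a1 probe (orange), on each of the 4 arrays of a stage (points) with the mean ± SD (bar). H2ax, H2az1, H2az2, H1f10 and Macroh2a1 stepped down, with H2ax at 12.32 to 12.67 on the E12.5 arrays and 10.11 to 10.33 on the E18.5 arrays, while H3f3a and H3f3b stayed between 13.21 and 13.76.

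The machinery that makes and places histones was read from lists. The list of histone mRNA transcription and processing had 12 of 15 genes tested, of which 1, 3 and 5 fell in the first interval, the second and over both (5.18%, 5.47% and 13.8% of all 10662 tested genes fell, each by 1 probe) and 0 rose. The 1 of 12 in the first interval is 8.33%, near the share of all genes. Cdk2 and its cyclins Ccne1 and Ccne2, the kinase that activates the histone gene coactivator Npat, fell over both intervals, with log2 fold changes of -2.57, -2.40 and -2.14 (adjusted p = 8.86e-11, 5.48e-09 and 6.81e-10). Sympk, a scaffold of the cleavage complex, fell by 1.14 (adjusted p = 2.93e-06). No probe was tested for Slbp, which binds the stem-loop, and the probe of Npat was detected on 3 arrays of E12.5 and on 0 of the later stages.

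The list of replication-coupled histone chaperones had 11 of 12 genes tested. Of these, 6, 6 and 9 fell in the first interval, the second and over both (54.5%, 54.5% and 81.8%). The shares of all tested genes that fell were 5.18%, 5.47% and 13.8%. In the list 0 rose, and the median log2 fold changes were -1.10, -1.08 and -2.02. Mcm2, of the replicative helicase, measured 11.03, 10.92, 11.26 and 10.52 at E12.5, 9.54, 9.56, 9.61 and 9.50 at E15.5 and 7.39, 7.58, 7.66 and 7.69 at E18.5, and fell 10.2-fold (-3.36 ± 0.13, adjusted p = 1.16e-10) with no overlap between stages. Mms22l (-3.10), Asf1b (-3.01) and Chaf1a (-2.88), the large subunit of the replication-coupled assembly factor CAF-1, fell too (adjusted p = 7.18e-10, 6.11e-10 and 2.13e-10). Of these 11 genes, 0 had a steeper fall later at the adjusted p, while 33 of 47 replication-dependent genes and 10.2% of all tested genes did, and the difference between the lists was not tested.

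The list for the variants, their chaperones and exchange factors, had 14 of 17 genes tested, of which 0, 0 and 1 fell and 1, 2 and 3 rose, with median log2 fold changes of -0.25, 0.00 and -0.34. The shares that rose, 7.14%, 14.3% and 21.4%, stand beside 7.73%, 6.95% and 16.3% of all tested genes, and the 1 of 14 that fell beside 13.8%, so the counts of this list lie near the background. Hira, which deposits the replacement H3, had ranges of 7.85 to 8.24, 7.30 to 7.66 and 7.57 to 7.90 over the 3 stages, and was not called (-0.35 ± 0.11, adjusted p = 0.0116). The 3 that rose were Nap1l5 (3.02 ± 0.31, adjusted p = 9.55e-07), Nap1l3 (2.38 ± 0.22, adjusted p = 2.79e-07) and Atrx, which was undetected at E12.5 and E15.5 and at E18.5 stood at least 1.54-fold above E12.5 (adjusted p = 2.88e-06). Nap1l3 and Nap1l5 are family members of a histone chaperone with expression known in neurons. Ruvbl2, an ATPase of the H2A.Z exchange complexes, fell by 1.02 (adjusted p = 4.87e-07).

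Markers of dividing cells fell in both intervals. All 6 tested markers fell over the whole period and 5 of 6 in each interval, while of the 68 replication-dependent probes 4 fell in the first and 48 in the second. At the adjusted p, 4 of 6 markers and 33 of 47 replication-dependent genes had a more negative change later (10.2% of all tested genes). The median difference between the intervals was -0.98 for the markers and -1.09 for these histone genes, so the later step was the larger in both. The markers had median log2 fold changes of -1.24, -2.19 and -3.34. Their mean level over the 3 stages was 10.55 to 11.06, 9.52 to 9.76 and 7.48 to 7.78, and that of the 47 replication-dependent genes was 9.95 to 10.15, 9.56 to 9.82 and 8.09 to 8.32. The variant genes had 12.24 to 12.44, 12.04 to 12.12 and 11.25 to 11.33. Progenitor markers had 9.06 to 9.46, 8.47 to 8.67 and 7.21 to 7.56, and neuronal markers 8.59 to 9.62, 10.02 to 10.34 and 10.64 to 10.72. The part of the changing cell makeup in the histone results was not tested. Without array 4 of E12.5, the array with the high neuronal level, 8 replication-dependent probes fell in the first interval, against 4 with it, and 53 over both, against 52. Without array 1 of E15.5, 8 fell in the first interval as well. Without both arrays numbered 4 of the earlier stages, 8 fell in the first interval.

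**Figure D5:**
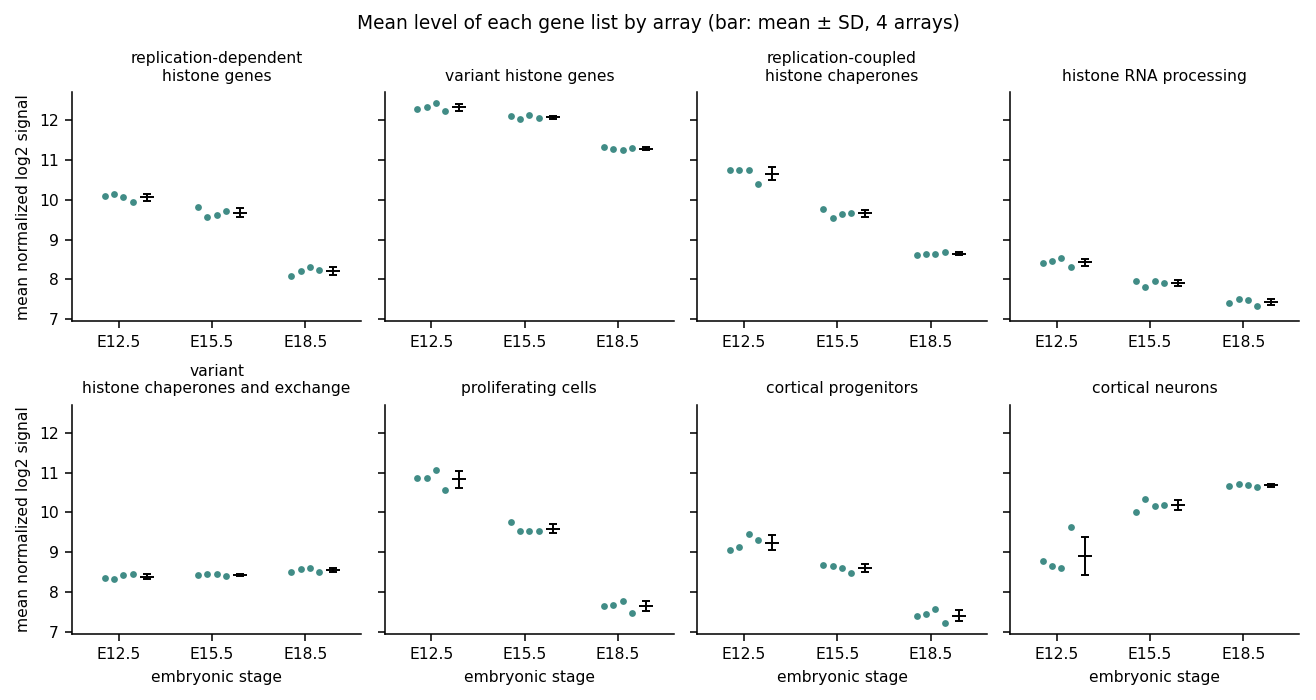
Mean normalized log2 signal of 8 gene lists on each array (points) with the stage mean ± SD (bar). The replication-dependent histones lay at 9.95 to 10.15, 9.56 to 9.82 and 8.09 to 8.32 over the 3 stages, the proliferation markers at 10.55 to 11.06, 9.52 to 9.76 and 7.48 to 7.78, and the neuronal markers stepped up, with array 4 of E12.5 at 9.62.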

How the data were processed

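RNA of mouse embryonic cortex was measured on 12 arrays, 4 at each of E12.5, E15.5 and E18.5. The authors deposited, for each of 45281 probes, a signal intensity per array that was not normalized between arrays, and a detection p-value. Their processed table, deposited as log2 values, equals the quantile-normalized log2 signals (largest difference 5.00e-09) and served as an alternative. Per the labels, RNA was labeled with the Ambion MessageAmp kit. The tool lumi is credited to the submitters' processing notes (version not given in the sources used here).

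From the signals, background was removed by the normal-exponential model of limma 3.58.1 under R 4.3.3 (offset 16, parameters from the detection p-values), followed by quantile normalization and log2. Every probe with a detection p under 0.01 on 1 array or more was fitted, all 12 arrays together and 1 mean for each stage, with Benjamini-Hochberg adjustment over all 19652 probes within each comparison, and the 3 comparisons and the difference between intervals were read from it. Calls needed an adjusted p under 0.01 and 2-fold. A gene stands for its tested probe of the highest mean. The naming rule took every tested variant gene, and of the replication-dependent genes detected on all arrays of E12.5 and E18.5 the 8 largest falls, at most 3 of 1 type, and the 3 largest rises, and up to 4 called genes per pathway list. H3c1, Hira, Slbp, Npat and the bright or disagreeing probes were named outside this rule, after their values were seen. The members and lists were chosen with earlier results of these data known. Gene names came from the platform annotation, and the gene IDs of all 102 member probes were found in RefSeq. The test was checked on simulated data. The number of arrays limits the precision. Replicate numbers were not used to pair the samples. The correlations of deviations from the stage means ran from -0.33 to 0.27 for same-numbered arrays. They showed no pairing, but so few arrays cannot establish its absence. Alternatives varied the background, scaling, filters, thresholds, weights, probe choice, block and arrays used.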

Additional observations from a re-analysis of the deposited data

Results flagged for a closer look

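Of 57 groups of 4 arrays (1 named histone gene at 1 stage), 6 held an array far from the others by Dixon's test, where chance flags about 1 in 20, or 2.85. H2az1 measured 13.53 on array 4 of E15.5, where the others were at 13.41. H3f3b measured 13.69 on array 1 of E18.5 (others 13.49 to 13.53), and Macroh2a2 9.06 on array 3 of E15.5 (others 8.93 to 8.95). H3c4 measured 10.20 on array 1 of E15.5 (others 9.69 to 9.74). H4c9 measured 9.98 on array 4 of E12.5 (others 10.41 to 10.46), and H4c6 10.81 on array 3 of the same stage (others 10.43 to 10.46). Array 4 of E12.5 is also the array with the high neuronal marker level, and the part of that in the H4c9 value was not tested.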

How the results depend on the processing

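Of 300 counts under the alternatives, 279 stayed within 1.5 times the reported count. Without background correction, 1 replication-dependent probe rose in the first interval and 0 variant probes rose in the second. With no minimum fold, 7 replication-dependent probes rose and 35 fell in the first interval and 1 rose over both, and of the variants 2 rose and 5 fell in the first interval, 2 rose and 8 fell in the second and 2 rose over both. With a minimum fold of 1.5, 4 replication-dependent probes rose and 29 fell in the first interval and 1 rose over both, and of the variants 1 rose and 2 fell in the first interval, 7 fell in the second and 2 rose over both. Array weights gave 7 replication-dependent falls in the first interval. Leaving out 1 array gave 4 to 8 falls there, with 8 without array 4 of E12.5 or array 1 of E15.5, 47 to 48 in the second interval and 52 to 53 over both, and 6 to 7 variant falls over both. The replicate number as a block (no array correlated best with its own number at both other stages, and 3 of 12 same-number correlations exceeded 0.1) gave 4 replication-dependent falls in the first interval, 48 in the second and 52 over both, and changed no count by over 1.5 times. Of 1368 values of 19 named genes, 1351 kept their side of the threshold, 15 passed 2-fold in place of falling short of it (H4c6, H4c9, H4c17 and H3c7 in the first interval), 1 was weaker (H2ac18 as the mean of its probes, 0.83 in the first interval) and 1 reversed (Macroh2a1 over both intervals, 0.05 with adjusted p = 0.525 as the mean of its probes, which hold the rising one). Median scaling in place of quantile normalization moved the median of all probes by 0.09, 0.11 and 0.21. The cause of the other moves was not tested. Folds of probes near background are limited by detection, and compression of the brightest probes was not tested.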
